A study of Mus musculus with 2 samples.

Results

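The miR-30 family was described in mouse heart from its 6 hairpin genes, Mir30a, Mir30b, Mir30c-1, Mir30c-2, Mir30d and Mir30e. They were taken by their GENCODE M21 symbols from the 2202 miRNA genes that were counted, and all 6 had 10 or more counts in each library. MicroRNA sequencing had been done on the hearts of 2 male B6CASTF1/J mice aged 4 days, with 1 library per animal and no treatment named. B6CASTF1/J animals are F1 hybrids of the inbred strains C57BL/6J and CAST/EiJ. The libraries are called replicates 1 and 2 after the biological replicate numbers of the labels, which also give the animals separate numbers but 1 shared donor identifier. If the hearts did not come from separate animals, the spread given below is technical. The libraries form a single group, so there is no comparison of conditions.

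MicroRNAs are cut from hairpin transcripts, and either arm of a hairpin, called 5p or 3p, can give a mature product. Bases 2 to 8 of a mature miRNA, the seed, pair with target messenger RNAs, which are then repressed. Members of the miR-30 family share their 5p seed and can therefore bind the same kind of target site. In heart the family is known for high expression in muscle cells and for repressing the gene of connective tissue growth factor, a matrix protein regulator. Its hairpins lie as 3 pairs on 3 chromosomes.

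The mature 5p products are shown first, because the shared seed defines the family and the bases after it decide which hairpin a read can be assigned to. RefSeq (GRCm38.p6) sequences were matched for 4 of the 6 genes, and Mir30b and Mir30d had no entry in the table used. Sequences are written 5′ to 3′ with the seed in capitals.
Mir30a 5p: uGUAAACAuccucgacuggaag
Mir30e 5p: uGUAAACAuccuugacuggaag
Mir30c-1 and Mir30c-2 5p: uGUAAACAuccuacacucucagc
Mir384 5p: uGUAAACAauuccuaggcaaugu
The seed GUAAACA was found in 5 of 1738 mature sequences of the table (0.288%), namely those of the 4 matched members and that of Mir384, a hairpin on chromosome X. Counted from 1 at the 5′ end, the 5p products of Mir30a and Mir30e differed by the substitution C13U (Mir30a base first). The 5p products of Mir30a and Mir30c-1 differed at 5 of 22 compared bases, C13A, G14C, G18C, G19U and A20C. The 5p product of Mir30c-1 was identical to that of Mir30c-2 over all 23 bases.

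The 3p products, which carry other seeds, show how far the other arm can tell the genes apart. Their seeds fall into 2 groups, UUUCAGU in Mir30a and Mir30e and UGGGAGA in Mir30c-1 and Mir30c-2.
Mir30a 3p: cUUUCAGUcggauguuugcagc
Mir30e 3p: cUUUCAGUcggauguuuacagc
Mir30c-1 3p: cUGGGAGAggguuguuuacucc
Mir30c-2 3p: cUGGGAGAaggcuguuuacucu
The 3p products of Mir30a and Mir30e differed by G18A, and those of Mir30c-1 and Mir30c-2 by G9A, U12C and C22U. The deposited counts combine both arms of a hairpin, so the arms could not be measured apart.

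The pair of hairpins on chromosome 1 is intergenic or noncoding. Mir30a (chr1:23272269-23272339, plus strand, mm10) overlaps no annotated gene, and the nearest coding gene, Ogfrl1, lies 94085 bases away. Mir30c-2 (chr1:23291701-23291784, plus strand) lies 19361 bases further on, in an exon of the long intergenic noncoding RNA gene Gm27028. On chromosome 15, Mir30b (chr15:68337415-68337510, minus strand) overlaps an exon of the noncoding gene Gm26621, in 1 of its 2 transcripts. Mir30d (chr15:68341208-68341289, minus strand) is separated from it by 3697 bases and overlaps exons of Gm20732, a long intergenic noncoding RNA gene, and Gm37296. On chromosome 4, Mir30c-1 (chr4:120769534-120769622, minus strand) and Mir30e (chr4:120772606-120772697, minus strand) lie 2983 bases apart in the same 4772-base intron of Nfyc. Nfyc encodes a subunit of the transcription factor NF-Y, and this is intron 5 of its transcript Nfyc-201. The Mir30e hairpin has an annotated hairpin on the other strand at the same position, Mir30f.

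The libraries held 4196577 and 3801738 counts on the strand of the annotated gene, called sense counts, in replicates 1 and 2. Values are given as CPM, the count scaled to the library's sense total, with the SD over both libraries (n = 2). A single count was worth 0.238 and 0.263 CPM, so the limit that a count of 0 allows, 3 counts, was 0.715 and 0.789 CPM. Reads that aligned to several places, 38.1% and 42.3% of all reads in the tables, are not in the gene counts. All 3 listed heart muscle markers, Mir208a, Mir208b and Mir499 of the myosin heavy chain genes, had counts in both libraries, with sums of 13054 and 8858 CPM. Other muscle miRNA genes, not in that list, were low. Their log2 of the mean CPM + 1 was 1.96 for Mir1a-1, 5.48 for Mir1a-2, 2.61 for Mir133a-1 and 1.32 for Mir133a-2. The part of uncounted reads in these low values was not tested. Of the 6 neuron markers, copies of Mir124a and Mir9, 4 had 0 counts in both libraries. A read that matches several copies is not counted, so these 0 counts cannot show that the miRNAs were absent.

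By counts assigned to a single gene, the miR-30 genes were among the well represented miRNAs of the 2 libraries. Reads that aligned to several places are left out for every gene. The ranks here and below therefore hold among assigned counts and need not be those of the mature miRNAs in heart. In replicate 1 they took 5.56% of all sense counts (5.54 to 5.58, 95% Wilson interval). In replicate 2 they took 4.79% (4.76 to 4.81), which gives a mean of 5.17% ± 0.55. Grouped by the number in the gene symbol, the family ranked 5 and 6 among 1959 such groups in replicates 1 and 2. In this grouping Mir30f, which had 0 sense counts, is the seventh gene.

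Of the family's counts, 3 genes held nearly all, 1 from each locus. Mir30d, the most abundant, had 112265 counts in replicate 1 and 75407 in replicate 2, or 26752 and 19835 CPM. Its mean was 23293 ± 4891 CPM, and it ranked 8 and 12 among all miRNA genes. The larger value was that of replicate 1, and in both libraries Mir30d stood above every other member.

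Mir30a had 65275 and 53463 counts in replicates 1 and 2, or 15554 and 14063 CPM, with a mean of 14809 ± 1055 CPM. It ranked 18 and 19 among all miRNA genes. Mir30e had 51281 and 49522 counts, or 12220 and 13026 CPM, with a mean of 12623 ± 570 CPM and rank 20 in both libraries. Mir30e was the only member with the larger CPM in replicate 2. Its lowest and highest values did not overlap those of Mir30a.

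The remaining 3 genes were lower by more than an order of magnitude. Mir30c-2 had 1884 and 1366 counts in replicates 1 and 2, or 449 and 359 CPM, with a mean of 404 ± 63.4 CPM. Mir30c-1 had 1356 and 1118 counts, or 323 and 294 CPM, with a mean of 309 ± 20.5 CPM. Both hairpins give the same 5p product, so a read of that product matches both places. Mir30b had 1202 and 1069 counts, or 286 and 281 CPM, with a mean of 284 ± 3.70 CPM.

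The order of the means was Mir30d, Mir30a, Mir30e, Mir30c-2, Mir30c-1 and Mir30b, and it was the same in both libraries. Mir30d exceeded Mir30a by 1.72-fold in replicate 1 (95% exact interval 1.70 to 1.74) and 1.41-fold in replicate 2 (1.39 to 1.43). Mir30a exceeded Mir30e by 1.27-fold (1.26 to 1.29) and 1.08-fold (1.07 to 1.09). On the log2 scale this ratio, 0.23 ± 0.17, was only a little larger than its spread between the libraries. Mir30c-2 exceeded Mir30c-1 by 1.39-fold (1.30 to 1.49) and 1.22-fold (1.13 to 1.32). Mir30c-1 and Mir30b stood 1.13-fold (1.04 to 1.22) and 1.05-fold (0.961 to 1.14) apart, and in replicate 2 they were not told apart at this depth. All intervals here describe counting error within a library alone and treat each read as independent. PCR copies of a molecule are counted as separate reads, which would make the intervals too narrow. With 2 libraries no exact test over samples can reach p = 0.05, and none was run on these ratios.

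**Figure D1:**
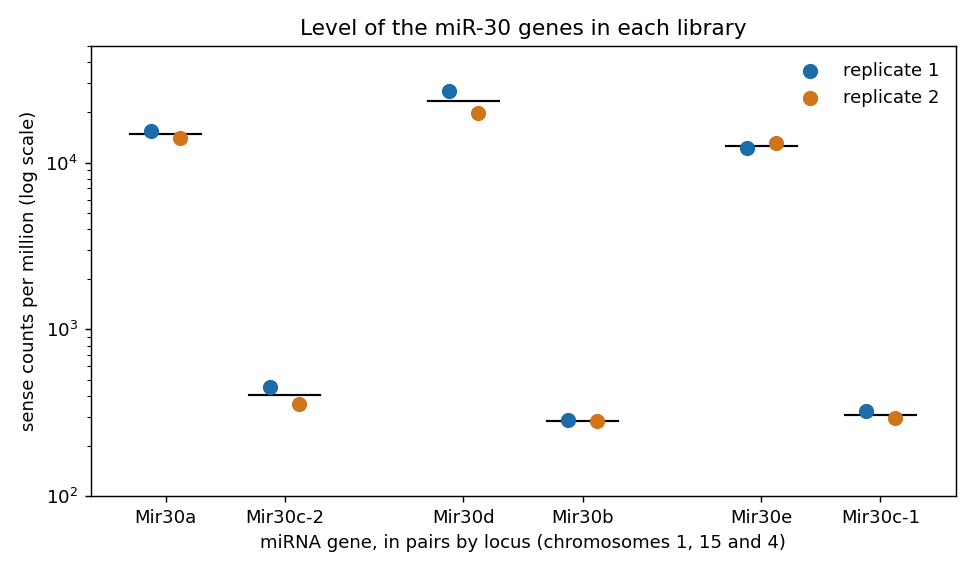
Level in CPM of each miR-30 gene on a log axis, with genes in pairs by locus. Points are the libraries (replicates 1 and 2) and bars their means; at each locus 1 gene sits at 12220 CPM or more and its partner at 449 CPM or less.

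Each locus thus paired a hairpin with many assigned reads and a hairpin with few. On chromosome 15, Mir30d exceeded Mir30b by 93.4-fold in replicate 1 (95% exact interval 88.2 to 98.9) and 70.5-fold in replicate 2 (66.4 to 75.0). On chromosome 1, Mir30a exceeded Mir30c-2 by 34.6-fold (33.1 to 36.3) and 39.1-fold (37.1 to 41.3). In the Nfyc intron, Mir30e exceeded Mir30c-1 by 37.8-fold (35.8 to 39.9) and 44.3-fold (41.7 to 47.0). On the log2 scale these ratios were 6.34 ± 0.29, 5.20 ± 0.12 and 5.36 ± 0.16, each many times its spread between the libraries. At each locus the intervals of the libraries did not overlap. The ratio was larger in replicate 1 for Mir30d over Mir30b and larger in replicate 2 at the other loci.

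In assigned counts, these gaps were wide next to the median gap of other neighbouring miRNA genes. Among 119 other pairs of adjacent genes with counts, on the same strand and within 10 kb, the median absolute log2 gap was 2.72. A larger gap than that of Mir30d and Mir30b was seen in 11 of them (9.24%), and a larger gap than that of Mir30e and Mir30c-1 in 17 (14.3%). Mir30a and Mir30c-2 lie farther apart than 10 kb. In a set widened to 50 kb after seeing the data, with 128 other pairs, 18 (14.1%) had a larger gap than theirs. The log2 ratio within a pair differed between the libraries by 0.40 for Mir30d and Mir30b, 0.18 for Mir30a and Mir30c-2 and 0.23 for Mir30e and Mir30c-1. The median of that difference was 0.59 over the other pairs of the widened set. Where the lower partner is Mir30c-1 or Mir30c-2, reads of its 5p product that align to both Mir30c hairpins are not counted. The part of such reads in these gaps was not tested. Sequence shared with other hairpins was not assessed for the other pairs. The same gene can enter several pairs, so the pairs are not independent, and the comparison is a description, not a test.

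**Figure D2:**
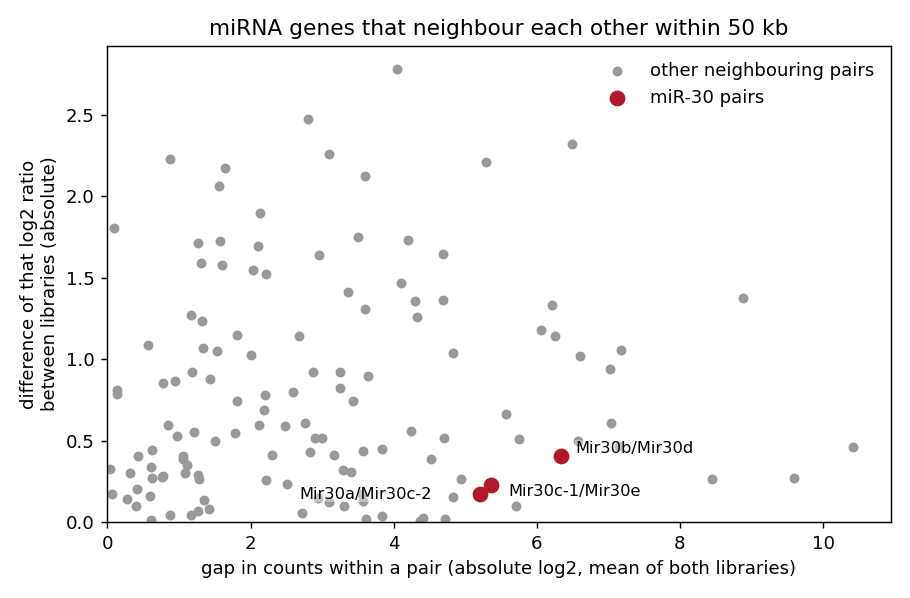
Each point is a pair of neighbouring miRNA genes on the same strand within 50 kb, by assigned counts that leave out reads aligned to both Mir30c hairpins. The x axis gives the absolute log2 gap in counts within the pair (mean of both libraries), and the y axis the absolute difference of that log2 ratio between the libraries; the miR-30 pairs lie at gaps of 5.20 to 6.34 and at differences of 0.18 to 0.40.

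The 4 matched hairpins are printed with the 5p product in capitals, because the sequence shared between hairpins sets which reads can be assigned to a single gene.
Mir30a hairpin: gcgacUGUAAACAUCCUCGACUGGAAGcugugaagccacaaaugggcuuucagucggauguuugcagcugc
Mir30e hairpin: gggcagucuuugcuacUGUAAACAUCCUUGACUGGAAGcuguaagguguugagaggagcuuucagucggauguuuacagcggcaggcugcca
Mir30c-1 hairpin: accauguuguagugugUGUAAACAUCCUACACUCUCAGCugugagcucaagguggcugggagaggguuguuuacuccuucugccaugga
Mir30c-2 hairpin: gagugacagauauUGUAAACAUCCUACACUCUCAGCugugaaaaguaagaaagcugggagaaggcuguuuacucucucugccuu
The longest run shared by the Mir30c-1 and Mir30c-2 hairpins was 28 bases and held the whole 5p product. Of 20-base windows, 9 of 70 in Mir30c-1 and 9 of 65 in Mir30c-2 were found in the other hairpin, and all 4 windows of the 5p product were among them. None of the 3 windows of either 3p product was shared. Mir30a had 0 of 52 windows and Mir30e 0 of 73 windows in common with any other of the 1005 hairpins of the table, and the longest run they shared with each other was 18 bases. Mir30b and Mir30d were not in this search. The counts of Mir30c-1 and Mir30c-2 are therefore uncertain as levels of miR-30c. How much of their distance from Mir30e and Mir30a came from reads that match both places was not tested.

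The make-up of the family's counts differed between the libraries mainly in Mir30d and Mir30e. Mir30d held 48.1% of them in replicate 1 and 41.4% in replicate 2. Mir30a held 28.0% and 29.4%, and Mir30e 22.0% and 27.2%. Mir30b, Mir30c-1 and Mir30c-2 together held 1.90% (95% Wilson interval 1.85 to 1.96) and 1.95% (1.89 to 2.02), intervals that overlap. Reads that align to both Mir30c hairpins are not in these counts. The shares are thus of assigned reads and need not be those of the mature products. By locus, the chromosome 15 pair held 48.6% and 42.0%, the chromosome 1 pair 28.8% and 30.1%, and the Nfyc pair 22.6% and 27.8%. Without Mir30d, chosen for removal after its values were seen, the family's share of all sense counts was 2.88% in replicate 1 (2.87 to 2.90) and 2.80% in replicate 2 (2.79 to 2.82).

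**Figure D3:**
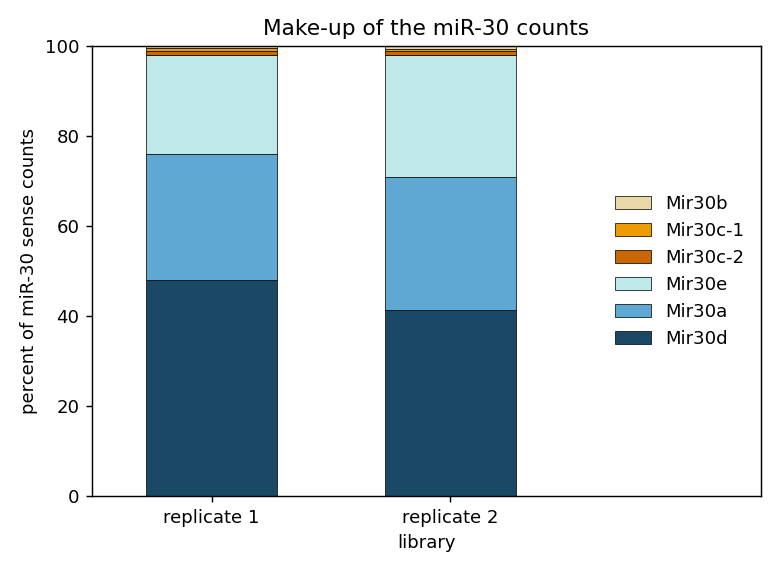
Percent of the summed miR-30 sense counts held by each gene in each library, stacked from 0 to 100%. Mir30d takes 48.1% in replicate 1 and 41.4% in replicate 2, and the top slices of Mir30c-2, Mir30c-1 and Mir30b together stay near 2%. Reads that align to both Mir30c hairpins are not counted.

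Between the libraries the members differed by less than 2-fold, and most differences exceeded counting error. Mir30d was lower in replicate 2 with a log2(CPM + 1) ratio of -0.43, Mir30c-2 had -0.32, Mir30a -0.15 and Mir30c-1 -0.14. Mir30e was higher in replicate 2 with a ratio of 0.09. In Fisher's exact test of each gene against the rest of its library, with Benjamini-Hochberg adjustment over 441 genes with 10 or more counts, 5 of 6 members passed an adjusted p of 0.05. Of all tested genes 56.9% did, a share that is not matched to the members in depth. All 6 members had a mean count of 1000 or more, where the test can call smaller differences than near 10 counts. The members' count is therefore not read as a trait of the family. Lower in replicate 2 were 4 members, beside 36.5% of all tested genes, and higher was 1 member, beside 20.4%. The test compares 2 libraries and takes counting error as the only error.

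The adjusted p of Fisher's exact test was below 1e-300 for Mir30d, 2.6e-67 for Mir30a, 8.4e-24 for Mir30e and 9.8e-10 for Mir30c-2. It was 0.037 for Mir30c-1, or 0.062 with no count minimum, and 0.76 for Mir30b, whose ratio was -0.03. In counts without regard to strand, Mir30b passed as well (adjusted p of Fisher's exact test 0.039). The directions and several calls depended on the scaling. The median log2 ratio of all tested genes was -0.26 and that of the members -0.14. Scaling by TMM, the trimmed mean of M-values, added 0.24 to the log2 ratio of CPM before the pseudocount, and DESeq2's size factors added 0.31. The median log2(CPM + 1) ratio of all tested genes was then -0.06 under TMM and -0.00015 under DESeq2's size factors. Mir30d stayed lower in replicate 2 at -0.19 and -0.12, and Mir30e stayed higher at 0.34 and 0.40. Mir30a turned positive at 0.10 and 0.17 and still passed. Mir30c-1 turned positive at 0.11 and 0.18, with an adjusted p of Fisher's exact test of 0.11 under TMM and 0.0056 under DESeq2's size factors. Mir30b turned positive at 0.22 and 0.28 and then passed (adjusted p 0.00081 and 7.4e-06, Fisher's exact test). Mir30c-2 stayed negative at -0.08 and -0.01 and no longer passed (adjusted p 0.21 and 0.93, Fisher's exact test).

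Spread beyond counting error was estimated as edgeR's biological coefficient of variation, 0.391 over the 344 genes that reached 10 counts in both libraries. With that spread, edgeR's exact test called 0 of the 6 members at an adjusted p of 0.05, and the unadjusted p was 0.60 for Mir30d and higher for the others. This estimate comes from the same 2 libraries, which limits what the test can call. It called 2 of 441 genes, and 25 had an unadjusted p under 0.05. A change of more than 2-fold was seen in 0 of the 6 members and in 18.8% of all tested genes. Among the 128 genes with a mean count of 1000 or more, which include all 6 members, 18.0% differed by more than 2-fold and the median absolute log2 ratio was 0.38. Mir30d with 0.43 and Mir30c-2 with 0.32 lay on either side of that median, and Mir30a, Mir30c-1, Mir30e and Mir30b lay below it.

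**Figure D4:**
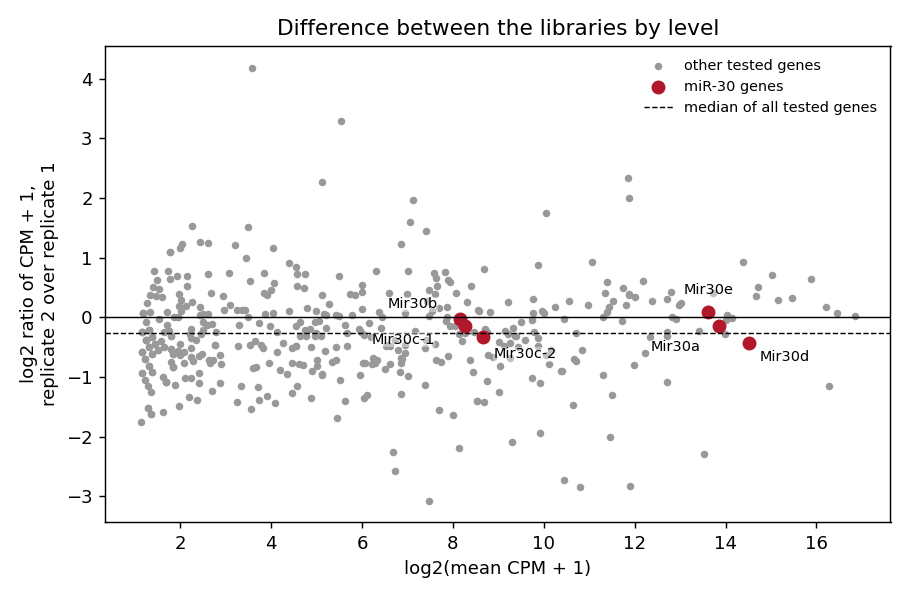
Log2 ratio of CPM + 1, replicate 2 over replicate 1, against log2 of the mean CPM + 1 for the 441 tested genes. The miR-30 genes lie between -0.43 and 0.09, around the dashed median of all tested genes at -0.26.

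Marker levels also differed between the libraries. The sum of the heart muscle markers had a log2 ratio of -0.56 in replicate 2 over replicate 1. The endothelial marker Mir126a had -1.15, with 109199 and 49330 CPM, and the smooth muscle markers Mir143 and Mir145a had 0.71, with sums of 48576 and 79468 CPM. All 4 white blood cell markers had counts, and their sum had 0.06, with 1478 and 1542 CPM. These markers did not move together. Their log2(CPM + 1) ratios were 0.63 for Mir142, 0.41 for Mir150, 0.39 for Mir223 and -0.24 for Mir155, which had the highest mean. The 3 red blood cell markers summed to 493 and 400 CPM, and the liver marker Mir122 stood at 309 and 105 CPM. The 5 epithelial markers summed to 299 and 354 CPM but went both ways. Their log2(CPM + 1) ratios were 1.00 for Mir141, 0.60 for Mir200c, -0.08 for Mir200a, -0.31 for Mir429 and -1.68 for Mir200b. The 6 neuron markers summed to 0.238 and 22.1 CPM. Only 1 of them, Mir9-3, had counts in both libraries, and its ratio of 4.19 starts from a single count. The part of these shifts in the members' differences was not tested. In whole heart, fewer cells of a type and less RNA per cell cannot be told apart.

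Genes related to the family had few counts or none. Mir384, which carries the same seed (chrX:105344282-105344369, minus strand), had 11 and 8 counts in replicates 1 and 2, or 2.62 and 2.10 CPM. It did not pass Fisher's exact test between the libraries (adjusted p = 0.74). Mir30f, named for the family, had 0 sense counts in both libraries, against the limits of 0.715 and 0.789 CPM. Its mature sequence is shown because it is the reverse complement of a stretch of the Mir30e hairpin and lacks the family's seed.
Mir30f mature: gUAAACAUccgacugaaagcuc
Over 19 bases it is the complement of the Mir30e 3p product. In counts taken without regard to strand, Mir30e and Mir30f both had 0 counts, while the other 5 members had the same counts as on their own strand.

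With 2 libraries, the gene most like each member could be named by level alone. By Euclidean distance in log2(CPM + 1) over both libraries, among 435 other tested genes, Mir139 was nearest to Mir30a at a distance of 0.03, with 15775 and 14272 CPM. Mir21a was nearest to Mir30e at 0.25, and Mirlet7b to Mir30d at 0.58. Mir134 was nearest to Mir30c-2 at 0.12, Mirlet7c-1 to Mir30c-1 at 0.09 and Mir369 to Mir30b at 0.08.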

How the data were processed

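The authors deposited raw read counts per miRNA gene for each library, without regard to strand, on the gene's strand and on the opposite strand. The description files that accompany the tables name the mm10 assembly and GENCODE M21. Aligner and counter: not given in the sources used here. Whether CAST/EiJ alleles aligned less well was not tested. The strand of each column was read from the values. Lines that name no gene (unmapped, multi-mapped, unassigned) made up 56.2% and 59.1% of reads in replicates 1 and 2 and were left out of totals and tests. CPM were computed over the sense counts, and log2 values use a pseudocount of 1 CPM.

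The members and lists were chosen with earlier results of these data known. Fisher's exact test (SciPy 1.17.1) was run on genes with 10 or more counts over both libraries and was checked on simulated counts. The simulated counts held counting error alone, so the check does not cover spread between libraries beyond it. edgeR 4.0.16 gave TMM scaling, the biological coefficient of variation and an exact test, since comparing 1 library with 1 leaves its quasi-likelihood test without residual degrees of freedom. DESeq2 1.42.0 gave size factors. Named genes were the members, genes with the same RefSeq seed, the nearest gene to each member in level, and hosts. Mir30f was named after its values were seen, because it overlaps Mir30e. The Mir1a and Mir133a genes were also named after their values were seen. Alternatives changed the strand, denominator, scaling, count minimum, pseudocount, test and libraries used.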

Additional observations from a re-analysis of the deposited data

Results flagged for a closer look

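Counts on the opposite strand were not used in the comparisons. In that column Mir30f held 51281 counts in replicate 1 and 49522 in replicate 2, while its sense counts were 0. These are the same numbers as the sense counts of Mir30e, which occupies the same position on the other strand. Reads opposite to Mir30f there are sense reads of Mir30e, so they are no measure of Mir30f. The 6 members themselves had 0 counts on the opposite strand in both libraries.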

How the results depend on the processing

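The family's share of 5.17% became 2.19% with all reads as the denominator and 2.84% without Mir30d, the latter chosen after seeing the data. Leaving out each library gave 4.79% to 5.56%. With counts taken without regard to strand it was 5.12%, although Mir30e then had 0 counts and its ratio to Mir30c-1 could not be computed. The other members kept their counts but rose in mean CPM over a smaller total. Mir30a rose from 14809 to 19335 CPM and Mir30d from 23293 to 30530 CPM. The likeness of 5.12% to 5.17% is therefore no sign of stability, because genes and totals both changed. The log2 ratios of locus partners ran from 5.11 to 5.29 for Mir30a over Mir30c-2, from 6.14 to 6.55 for Mir30d over Mir30b and from 5.24 to 5.47 for Mir30e over Mir30c-1 when each library was left out, and kept their direction in every alternative that gave a value. The count of members that differed between libraries by Fisher's exact test, 5, was 4 or 5 under the other scalings, strand and count minimum, and 0 with edgeR's exact test, but the members called were not the same. TMM lost Mir30c-1 and Mir30c-2 and gained Mir30b, DESeq2 size factors lost Mir30c-2 and gained Mir30b, and counts without regard to strand, which give Mir30e no value, gained Mir30b. With total counts, 1 member was higher in replicate 2 and 4 were lower, whereas TMM gave 3 and 1, DESeq2 size factors 4 and 1, and counts without regard to strand 0 and 5. Over all tested genes, total counts gave 90 higher and 161 lower, TMM 124 and 116, DESeq2 size factors 136 and 104, and counts without regard to strand 67 and 170 of 414. Under TMM scaling and DESeq2 size factors, Mir30a reversed to 0.10 and 0.17, Mir30c-1 to 0.11 and 0.18 and Mir30b to 0.22 and 0.28, while Mir30c-2 went to -0.08 and -0.01 with adjusted p of 0.21 and 0.93. These reversals follow from the 0.24 and 0.31 that the scalings add to log2 ratios of CPM. With no count minimum Mir30c-1 had an adjusted p of 0.062. The count of members over 2-fold apart was 0 in every alternative. No paired analysis was possible because the libraries form a single group. Depth limits the order of Mir30c-1 and Mir30b, and so do the uncounted reads that align to both Mir30c hairpins. The number of libraries limits every statement on spread.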
